A study of Homo sapiens with 6 samples.

Results

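The transforming growth factor beta (TGF-beta) pathway was examined at 9 genes, chosen by name from the deposited table of 22152 genes. They were the ligands TGFB1 and TGFB2, the receptors TGFBR1 and TGFBR2, the SMAD genes SMAD2, SMAD3, SMAD4 and SMAD7, and TGFBI, a target of the pathway. All 9 had a row in the table, and all 9 passed the filter on low values. RNA was sequenced from HaCaT cells, a human keratinocyte line that became immortal spontaneously in culture. Cells of the control group had received a negative control mimic at 1 nM, and cells of the other group had received a mimic of miR-21-3p, the passenger strand of the miR-21 hairpin, at 1 nM. Each group held 3 samples, harvested 48 h after transfection, and a mimic is a synthetic RNA that supplies the cell with the microRNA it copies. The comparison asks which transcripts differ in keratinocytes with raised miR-21-3p.

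TGF-beta ligands are secreted in a latent form and, once released, bind the type II receptor TGFBR2, which recruits and phosphorylates the type I receptor TGFBR1. The activated receptor phosphorylates SMAD2 and SMAD3, which join SMAD4, enter the nucleus and bind the promoters of target genes, while SMAD7 is induced by the pathway and blocks the receptor. In epidermis the pathway is known for halting keratinocyte proliferation and for raising genes of the extracellular matrix.

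The values were read counts per gene divided by a size factor per sample, called normalized read counts here. The whole reads behind them came to 24402588, 24528084 and 26170936 in the control samples and 24808070, 24974995 and 27985138 in the miR-21-3p samples. Keratinocyte markers were abundant. Of these, 11 of 12 listed markers had a row, none was at 0, and their sum lay between 1.55% and 1.69% of all normalized reads, with KRT5 the most abundant. Of the 11, 3 passed the limma test between the groups, and of all genes tested 10.8% passed. KRT6A was higher with the miR-21-3p mimic (log2 fold change 0.34, adjusted p = 0.00207), and KRT15 (-0.33, adjusted p = 0.0104) and ITGB4 (-0.26, adjusted p = 0.0385) were lower, the latter with groups that overlapped. The part of these markers in the results on the pathway was not tested. Of the markers of other cell types, 1 of 7 fibroblast genes, 1 of 5 endothelial genes, 1 of 6 immune genes and 1 of 4 melanocyte genes had a row, and the other genes of these lists were not analysed here. The fibroblast marker was COL1A1, at 560, 390 and 478 normalized reads in the control samples and 372, 378 and 364 in the miR-21-3p samples. COL1A1 is also counted below among the genes that TGF-beta is known to raise in epithelial cells. Its groups did not overlap, and its log2 fold change of -0.34 did not pass the limma test (adjusted p = 0.0641), though COL1A1 was called by DESeq2, by edgeR with upper-quartile scaling, and by limma without control replicate 2. Its part in the results on the pathway was not tested. The endothelial marker VWF was at 749 in the control mean and 740 in the miR-21-3p mean, the immune marker CD14 at 75.8 and 84.4, and the melanocyte marker PMEL at 134 and 141, and these 3 genes did not pass the test.

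Control replicate 2 was as close to the miR-21-3p samples as to the other control samples. Across the genes tested, its mean correlation of log2 values was 0.9947 with the other control samples and 0.9948 with the miR-21-3p samples. Control replicate 1 was about as far from its own group (0.9946) but further from the miR-21-3p samples (0.9904), and each of the samples other than control replicate 2 was closer to its own group. Transcripts of the mitochondrial genome made up 9.01%, 8.91% and 9.42% of reads in the control samples and 8.40%, 8.61% and 8.33% in the miR-21-3p samples, so this share was lower in the miR-21-3p group with no overlap. Its part in the results below was not tested. Among the members, control replicate 1 gave the highest value for 5 of 9 genes and miR-21-3p replicate 3 the lowest for 7 of 9.

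SMAD7, SMAD3 and TGFBI were lower in cells that received the miR-21-3p mimic, and neither ligand nor either receptor passed the test. SMAD7 was at 0.796 times its control level, TGFBI at 0.847 times and SMAD3 at 0.863 times. Thus 3 of 9 members were called at an adjusted p under 0.05 (limma, over all genes tested), 3 lower and 0 higher. Of all 14795 genes tested, 1593 (10.8%) were called, 904 (6.11%) higher and 689 (4.66%) lower. A count test, edgeR on the recovered whole reads, called 1640 of 14792 genes (11.1%) and the same number of members, 3. The median log2 fold change was -0.10 over the members and 0.00 over all genes tested. In bulk RNA, fewer cells with a transcript and less of it per cell cannot be told apart. The members called numbered 3 without control replicate 2 or miR-21-3p replicate 2, 1 (SMAD7) without control replicate 1 or miR-21-3p replicate 3, and 0 without control replicate 3 or miR-21-3p replicate 1. Over all genes the same omissions called 2957 and 1541, 542 and 365, and 176 and 277.

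**Figure D1:**
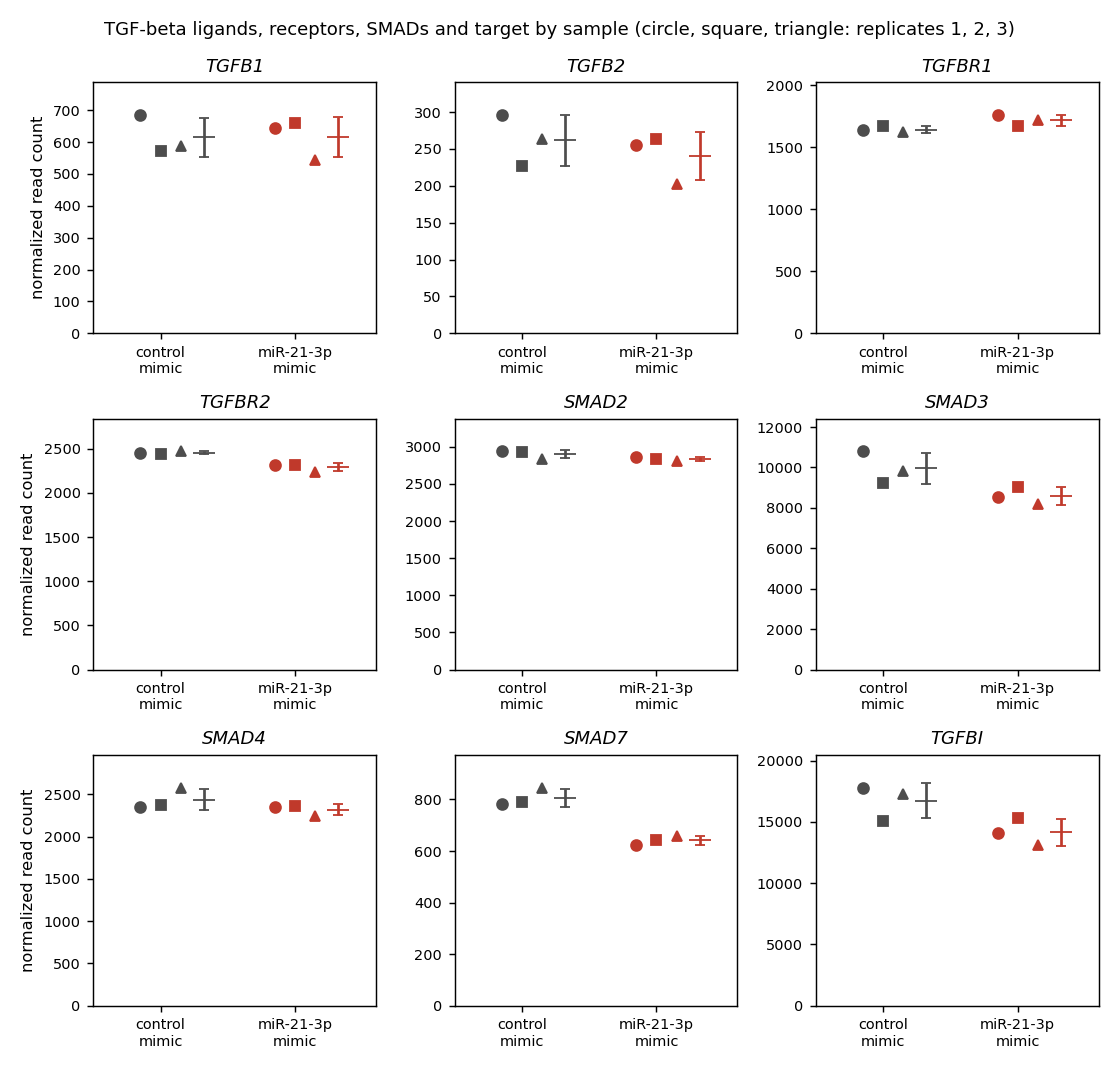
Normalized read counts of the 9 members in each sample (points), on axes that start at 0, with the group mean and SD (bars, n = 3 per group). The 3 miR-21-3p samples lie between 622 and 657 for SMAD7, below the control samples at 783 to 846, and for TGFBI miR-21-3p replicate 2 lies above control replicate 2.

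Per length, the members spanned a wide range in control cells. On the scale of reads per kilobase of exon, corrected for library size (RPKM), TGFBI, a secreted matrix protein, was at 84.3 ± 6.9 (SD, n = 3), SMAD3 at 43.0 ± 3.3 and TGFBR2 at 20.5 ± 0.035. Below them came TGFBR1 at 9.45 ± 0.20, TGFB1 at 7.46 ± 0.74, SMAD4 at 7.30 ± 0.34 and SMAD7 at 6.30 ± 0.24. TGFB1 and SMAD4 differed by less than the SD of TGFB1 and share a place in that order. SMAD2 followed at 3.14 ± 0.074 and TGFB2 was lowest at 2.0 ± 0.26. The lengths are all annotated exons of a gene joined, and for SMAD2 this comes to 36.4 kb, so levels per length depend on that annotation.

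Among the ligands, TGFB1 (ENSG00000105329.5) was at 685, 571 and 588 normalized reads in the control samples and at 644, 660 and 545 in the miR-21-3p samples. The values of the groups ran through each other, and the log2 fold change was 0.00 (95% interval -0.19 to 0.20, adjusted p = 0.983). TGFB2 (ENSG00000092969.7), the other ligand measured, was at 296, 227 and 263 in the control samples and at 255, 263 and 203 in the miR-21-3p samples. Here too the groups overlapped, with a log2 fold change of -0.12 (95% interval -0.39 to 0.14, adjusted p = 0.538). The ligands were the least repeatable members: the SD was 10% of the mean for TGFB1 and 13% for TGFB2 in the control group, where counting error alone gives 4.1% and 6.2%.

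The type I receptor TGFBR1 (ENSG00000106799.7), which carries the kinase that acts on the SMADs, was at 1640, 1670 and 1620 in the control samples and 1760, 1670 and 1720 in the miR-21-3p samples. The groups met at 1670, and the log2 fold change was 0.06 (95% interval -0.04 to 0.17, adjusted p = 0.412). The type II receptor TGFBR2 (ENSG00000163513.13), which binds the ligand, was at 2450, 2440 and 2470 in the control samples and at 2320, 2320 and 2240 in the miR-21-3p samples. All 3 miR-21-3p samples were below all 3 control samples, yet the log2 fold change of -0.10 (95% interval -0.19 to -0.003) did not pass the test (adjusted p = 0.163). Over all genes tested the groups did not overlap for 4624 (31.3%), 2186 of them (14.8%) with the miR-21-3p group lower. Of the members, 3 of 9 showed this, TGFBR2, SMAD3 and SMAD7, and 0 showed the opposite.

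Of the receptor-activated SMADs, SMAD3 (ENSG00000166949.11), which binds DNA directly, was at 10800, 9250 and 9820 in the control samples and 8520, 9040 and 8200 in the miR-21-3p samples. The groups did not overlap, with control replicate 2 and miR-21-3p replicate 2 nearest to each other. The mean fell from 9957 ± 784 (SD, n = 3) to 8587 ± 424, a log2 fold change of -0.21 (SE 0.06, 95% interval -0.34 to -0.08, adjusted p = 0.0392). The call held without control replicate 2 (adjusted p = 0.00471) and without miR-21-3p replicate 2 (0.0327). It was lost without control replicate 1 (adjusted p = 0.133), control replicate 3 (0.119), miR-21-3p replicate 1 (0.138) or miR-21-3p replicate 3 (0.141), with log2 fold changes that stayed between -0.26 and -0.15 over the 6 omissions. SMAD2 (ENSG00000175387.11), the other SMAD phosphorylated by the receptor, ran from 2840 to 2940 in the control samples and from 2810 to 2870 in the miR-21-3p samples. Its log2 fold change was -0.03 (95% interval -0.12 to 0.06, adjusted p = 0.664).

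SMAD4 (ENSG00000141646.9), the shared partner of the activated SMADs, ran from 2350 to 2580 in the control samples and from 2250 to 2360 in the miR-21-3p samples. The groups overlapped, and the log2 fold change was -0.07 (95% interval -0.18 to 0.04, adjusted p = 0.388). SMAD7 (ENSG00000101665.4), the inhibitory SMAD, was at 783, 789 and 846 in the control samples and at 622, 644 and 657 in the miR-21-3p samples. Every miR-21-3p sample was below every control sample. The mean fell from 806 ± 34.8 (SD, n = 3) to 641 ± 17.7, with a log2 fold change of -0.33 (SE 0.06, 95% interval -0.46 to -0.20, adjusted p = 0.00941). This was the smallest p among the members, and the SD in each group, 4.3% and 2.8% of the mean, was close to the counting error of 3.5% and 3.9%. Without control replicate 2 the adjusted p was 0.00365. The call was lost without control replicate 3 (log2 fold change -0.29, adjusted p = 0.0647) and without miR-21-3p replicate 1 (-0.31, adjusted p = 0.0576), and it held in the other 4 omissions.

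TGFBI (ENSG00000120708.11), a matrix protein named for its induction by TGF-beta, was at 17800, 15100 and 17300 in the control samples and 14100, 15300 and 13100 in the miR-21-3p samples. Control replicate 2 was below miR-21-3p replicate 2, so the groups overlapped. The mean fell from 16730 ± 1440 (SD, n = 3) to 14170 ± 1100, a log2 fold change of -0.24 (SE 0.07, 95% interval -0.39 to -0.09, adjusted p = 0.044). Without control replicate 2 it was -0.31 (adjusted p = 0.00244), and without miR-21-3p replicate 2 the adjusted p was 0.0254. The call was lost without control replicate 1 (adjusted p = 0.157), control replicate 3 (0.167), miR-21-3p replicate 1 (0.141) or miR-21-3p replicate 3 (0.16), and also with no filter on low values (0.0528). The spread between samples, 8.6% and 7.8% of the mean in the control and miR-21-3p groups, was well above the counting error of 0.78% and 0.83%.

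**Figure D2:**
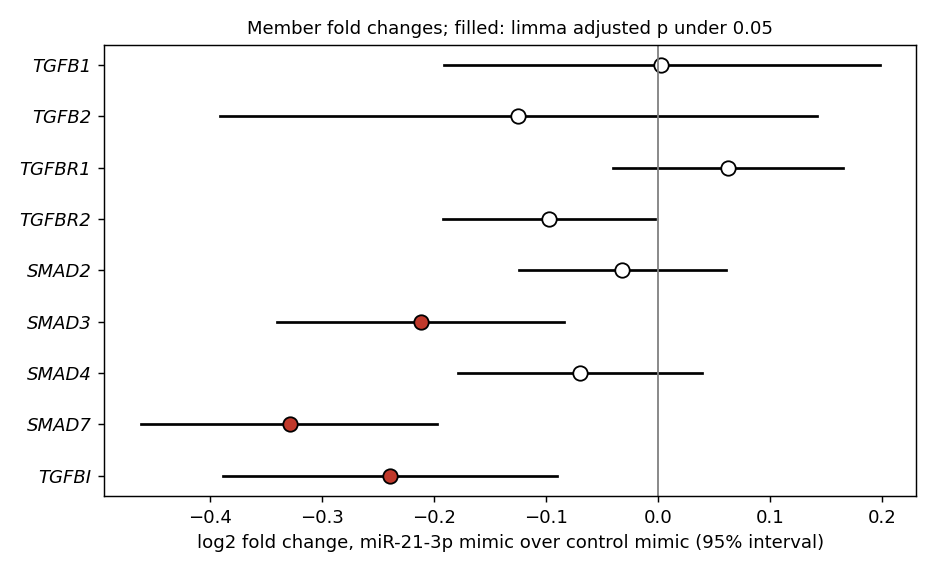
Log2 fold change of each member, miR-21-3p mimic over control mimic (points), with its 95% interval from limma (lines, 3 samples per group). SMAD3, SMAD7 and TGFBI, the filled points, lie below 0 with their whole interval, and the interval of TGFBR2 ends at -0.003.

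The SMADs bind short DNA elements, and since SMAD7 and SMAD3 fell together with PMEPA1, described further on, their promoters were searched for the core element CAGAC on both strands. The sequences were RefSeq promoter windows on GRCh38.p14, from 250 bases before to 50 bases after each annotated start, and all 9 members matched by symbol, with 24 windows between them. CAGAC was in 10 of these 24 windows (41.7%) and in 15894 of all 35116 windows (45.3%), so the members' share was near that of all genes. The windows with it belonged to TGFB2 (1 of 1), TGFBR1 (4 of 8), SMAD3 (3 of 5) and SMAD7 (2 of 3), and it was in 0 of the windows of TGFB1, TGFBR2, SMAD2, SMAD4 and TGFBI. The longer palindrome GTCTAGAC was in 0 of the 24 windows and in 71 of all windows (0.202%). With 10 bases on each side, the element lay wholly upstream of a start at 3 places for SMAD7, 4 for SMAD3 and 2 for PMEPA1, which had the element in 3 of its 4 windows. Genes that were not called held it upstream as well, TGFBR1 at 4 places and TGFB2 at 1, and the called TGFBI at 0. So that the letters can be seen, those of the first window with such a match in the RefSeq table are printed for the called SMAD genes and PMEPA1, genes chosen because they fell, 2 for SMAD7, 1 for SMAD3 and 1 for PMEPA1, and the other 1, 3 and 1, at other starts, are not. They are written 5′ to 3′ on the strand of the gene, with the element or its reverse complement in capitals. The printed SMAD7 runs lie at chr18:48951168-48951192 and chr18:48951079-48951103 (minus strand), 217 and 128 bases before the same start and within an exon that, in GENCODE, begins further upstream. The printed SMAD3 run is at chr15:67137878-67137902 (plus strand), 133 bases before an internal start and in an intron of the longer gene, and the printed PMEPA1 run is at chr20:57710678-57710702 (minus strand), 115 bases before a start and likewise in an intron.
SMAD7, 217 bases before the start: cggacgccccCAGACctctgaggtt
SMAD7, 128 bases before the start: cttattttgcCAGACgtctcatgcg
SMAD3: gatttcttctGTCTGggtgttgcca
PMEPA1: ccttgggcagCAGACaatgggtgtg
A match describes the letters of the window only.

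The rest of the pathway was followed through 161 genes in 8 lists by role, of which 125 had a row and 124 were tested. The test called 14 of these 124 genes (11.3%), 5 higher and 9 lower, a share near the 10.8% of all genes, and their median log2 fold change was -0.02. Among the 14 called genes, PMEPA1 and MMP13 had the largest falls and FST the largest rise. Without control replicate 2, all 14 kept their call and 15 further genes were called. PMEPA1, MMP13 and MYC kept the call in all 6 fits that left out a sample, and the other 11 lost it in at least 1. Without control replicate 3, and likewise without miR-21-3p replicate 1, 10 of the 14 were lost. Without miR-21-3p replicate 3 it was 9, without control replicate 1 it was 3 and without miR-21-3p replicate 2 it was 1.

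In the list of other ligands of the superfamily, 1 of 8 genes tested was called and it was lower. This was BMP1, which despite its name is not a ligand but a protease that trims procollagens and helps free latent TGF-beta. None of the ligands in the list was called. BMP1 was at 6220, 5320 and 5570 in the control samples and 4560, 4740 and 4770 in the miR-21-3p samples, a log2 fold change of -0.28 (SE 0.06, adjusted p = 0.0124). It was also the most abundant of its list by normalized reads. The call was lost without control replicate 3 or miR-21-3p replicate 1, where the highest adjusted p was 0.0713.

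Genes of latency, activation and ligand trapping gave 2 calls of 16 tested, 1 in each direction. FST encodes follistatin, a secreted trap for activins, and was at 2120, 2990 and 2160 in the control samples against 3880, 3160 and 4250 in the miR-21-3p samples. In both groups replicate 2 lay nearest to the other group, and FST rose 1.56-fold (log2 fold change 0.64, SE 0.12, adjusted p = 0.0108). FSTL3, a related activin trap, was at 1240, 1220 and 1240 against 1030, 1070 and 1050, a log2 fold change of -0.23 (SE 0.05, adjusted p = 0.0162). The traps thus moved in opposite directions. FST lost its call without control replicate 3 or miR-21-3p replicate 1 (highest adjusted p 0.0636), and FSTL3 without these or miR-21-3p replicate 3 (highest 0.0843). THBS1, a matrix protein that activates latent TGF-beta and had the most normalized reads of the list, had a log2 fold change of 0.09 (adjusted p = 0.204).

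Of the other receptors and co-receptors, 1 of 9 was called. BMPR2, the type II receptor for bone morphogenetic proteins, was at 4190, 3960 and 4300 in the control samples and at 3560, 3620 and 3300 in the miR-21-3p samples. The groups were apart, with a log2 fold change of -0.25 (SE 0.05, adjusted p = 0.0129), and the call was lost without control replicate 3, miR-21-3p replicate 1 or miR-21-3p replicate 3 (highest adjusted p 0.0793). Of the other SMADs and their partners, 1 of 12 was called. CREBBP, a histone acetyltransferase that SMADs recruit, had a mean of 2847 ± 35.1 (SD, n = 3) in control cells and 2567 ± 40.4 with the mimic, a log2 fold change of -0.15 (adjusted p = 0.0432). That call held only without control replicate 2 among the 6 omissions, and the highest adjusted p was 0.127. SP1, a transcription factor with the most normalized reads of that list, had a log2 fold change of -0.02 (adjusted p = 0.774).

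The list drawn up as negative regulators gave 2 calls of 21 tested, both lower. It also held USP4, USP11, USP15, UCHL5 and RNF111, which are known to promote the signal, and none of these was called. The counts for this list are thus not counts of inhibitors alone. PMEPA1, a membrane protein induced by TGF-beta that sequesters SMAD2 and SMAD3 from the receptor, was at 960, 767 and 862 in the control samples and 575, 521 and 522 in the miR-21-3p samples. The lowest control sample was well above the highest miR-21-3p sample, and the level was 0.627 times that of control cells (log2 fold change -0.67, SE 0.08, adjusted p = 0.00167). ARRB2 encodes an arrestin that takes part in receptor uptake, and was at 915, 831 and 800 against 706, 676 and 634. Its groups were apart too, with a log2 fold change of -0.34 (SE 0.07, adjusted p = 0.0137), and its call was lost without miR-21-3p replicate 3 (adjusted p = 0.0615). PPP1CA, a phosphatase subunit with the most normalized reads of the list, had a log2 fold change of 0.09 (adjusted p = 0.206). SKIL, a corepressor of the SMADs named after its values were seen because TGF-beta also induces it, was lower in all 3 miR-21-3p samples and missed the threshold (log2 fold change -0.21, adjusted p = 0.0568 by limma). SKIL was called by DESeq2, by edgeR with upper-quartile scaling, and by limma without control replicate 2. Of the 21 genes of this list, the groups did not overlap for 4 that were higher, USP4 and UCHL5 among them, and 4 that were lower. Over all genes tested the groups did not overlap for 31.3%, and for 14.8% with the miR-21-3p group lower.

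**Figure D3:**
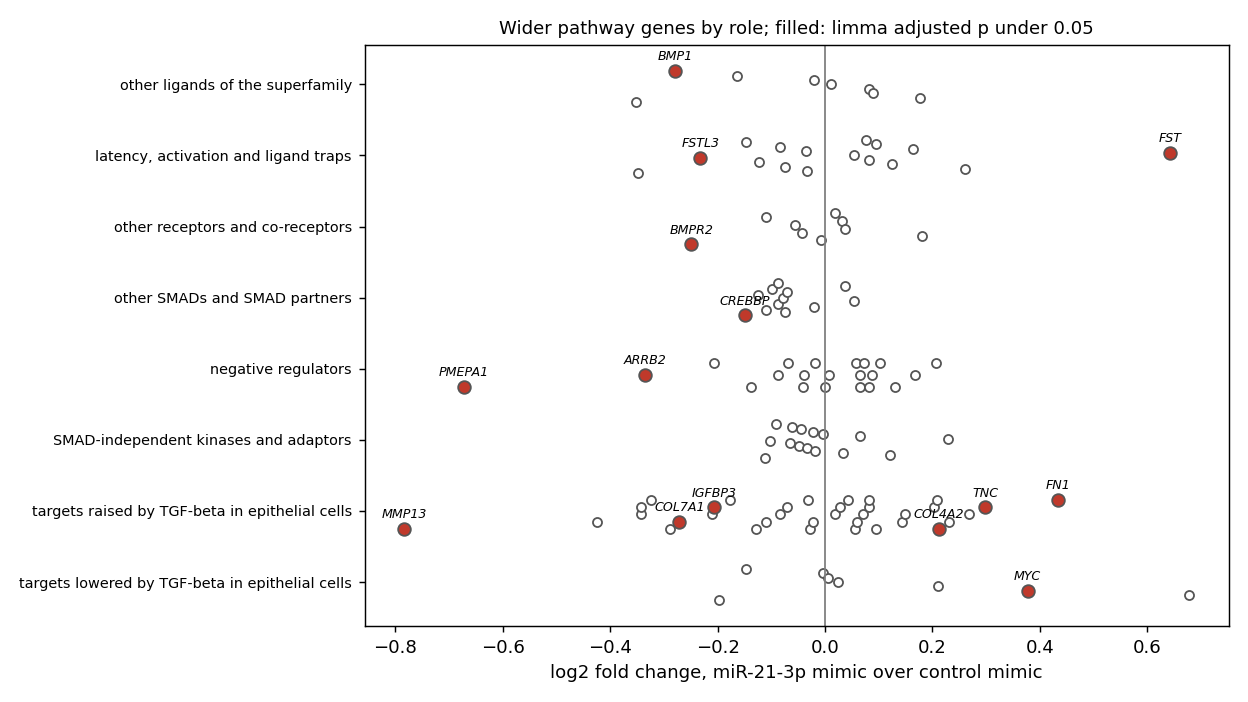
Log2 fold change of the 124 wider pathway genes tested, miR-21-3p mimic over control mimic, each a point in the row of its role and spread vertically only for legibility. The 14 filled and named genes passed the limma test, 5 to the right of 0 and 9 to the left, and the row of kinases and adaptors holds none. The row of negative regulators also holds USP4, USP11, USP15, UCHL5 and RNF111, which promote the signal.

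None of the 15 SMAD-independent kinases and adaptors was called by limma or by edgeR (0 of 15 by each), and 2 had an unadjusted limma p under 0.05. Of all genes tested, limma called 10.8% and edgeR 11.1%, and 4223 of 14795 had an unadjusted limma p under 0.05. RHOA, a small GTPase of the cytoskeleton with the most normalized reads of this list, was at 6220, 6440 and 6410 in the control samples and at 6730, 7140 and 6870 in the miR-21-3p samples. Its groups were apart, with a log2 fold change of 0.12 that did not pass the test (adjusted p = 0.0878).

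Among the genes that TGF-beta is known to raise in epithelial cells, 6 of 35 tested were called (17.1%, against 10.8% of all genes), 3 higher and 3 lower. By edgeR 8 were called, and the further genes, SNAI2 (edgeR adjusted p = 0.041, limma 0.0507) and CDKN2B (edgeR 0.0495, limma 0.0536), both named after their values were seen, were lower. MMP13, a collagenase, was at 1360, 1030 and 1350 in the control samples and at 754, 798 and 614 in the miR-21-3p samples. It was at 0.581 times the control level, with no overlap between groups (log2 fold change -0.78, SE 0.11, adjusted p = 0.00357). COL7A1, the collagen of anchoring fibrils under the epidermis, was at 4210, 3590 and 3630 against 3200, 3180 and 3070 (log2 fold change -0.27, adjusted p = 0.0173). IGFBP3, a binding protein of insulin-like growth factors and the gene with the most normalized reads of the list, had a mean of 31470 ± 2170 (SD, n = 3) in control cells and 27230 ± 1200 with the mimic (log2 fold change -0.21, adjusted p = 0.0423). The 3 genes of the list that rose were FN1, COL4A2 and TNC. FN1, fibronectin, was at 926, 1190 and 1020 in the control samples and at 1550, 1240 and 1440 in the miR-21-3p samples, a rise of 1.35-fold (log2 fold change 0.43, adjusted p = 0.0163). COL4A2, a chain of basement membrane collagen, had a log2 fold change of 0.21 (adjusted p = 0.0178) and TNC, tenascin C, one of 0.30 (adjusted p = 0.0495). COL7A1 and COL4A2 lost the call without control replicate 3, miR-21-3p replicate 1 or miR-21-3p replicate 3, as did IGFBP3, with highest adjusted p of 0.0693, 0.0997 and 0.189. FN1 and TNC lost it without any of these or without control replicate 1 (highest adjusted p 0.0852 and 0.183). With no filter on low values, TNC (adjusted p = 0.0565) and IGFBP3 (0.0546) were not called. TNC was also not called by edgeR with upper-quartile scaling (adjusted p = 0.0536) or by limma on TMM-scaled values (0.0508). COL1A1, given above with the cell type markers, belongs to this list and was lower without passing the limma test. RHOB, named after its values were seen, was higher with no overlap and did not pass (log2 fold change 0.21, limma adjusted p = 0.0596). It was called by limma without control replicate 2.

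CCN2, a matricellular protein induced by TGF-beta and named after its values were seen, was not called. It was low, from 41.0 to 46.4 normalized reads in the control samples and from 38.9 to 50 in the miR-21-3p samples. The groups overlapped, with a log2 fold change of 0.08 (adjusted p = 0.793).

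Of 8 genes that TGF-beta is known to lower in epithelial cells, 1 was called, and it was higher. By edgeR 2 were called, and the other, ID2, also an inhibitor of differentiation factors, was lower (log2 fold change -0.20, adjusted p = 0.0561 by limma and 0.048 by edgeR; named after its values were seen). MYC, a transcription factor that drives proliferation, was at 3180, 2730 and 2740 in the control samples and at 3760, 3860 and 3590 in the miR-21-3p samples. The groups were apart, and MYC rose 1.30-fold (log2 fold change 0.38, SE 0.06, adjusted p = 0.00554). ID1, an inhibitor of differentiation factors with the most normalized reads of this list, had a log2 fold change of -0.15 that did not pass the test (adjusted p = 0.127). TERT and CDC25A, named after their values were seen, were higher without passing (log2 fold changes 0.68 and 0.21, limma adjusted p = 0.0804 and 0.154). TERT was low, at means of 28.7 and 46.2, with groups that did not overlap. Both were called by limma without control replicate 2. The log2 fold changes of ID3, CDH1 and OCLN lay between -0.004 and 0.024.

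**Figure D4:**
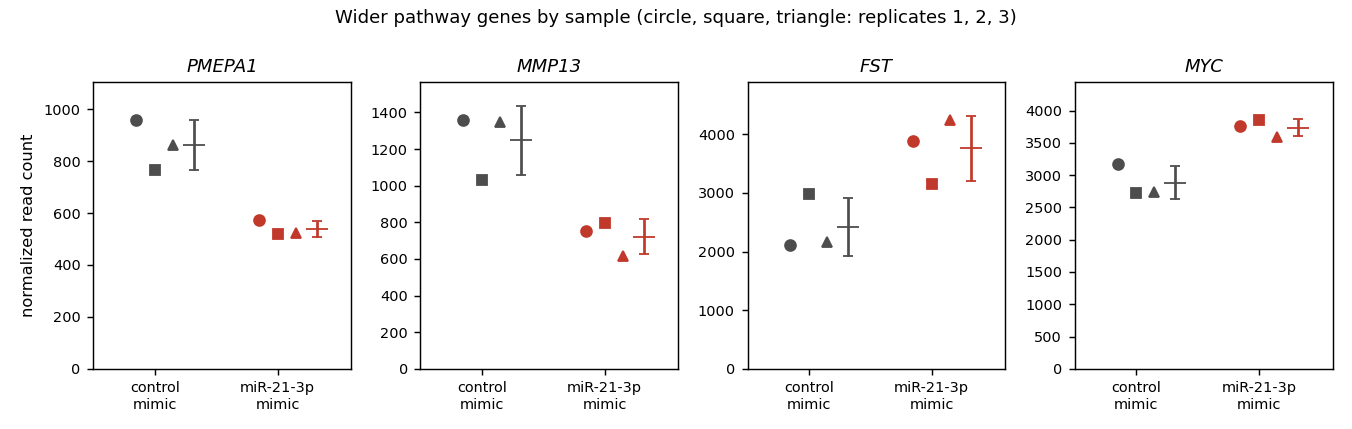
Normalized read counts of PMEPA1, MMP13, FST and MYC in each sample (points), on axes that start at 0, with the group mean and SD (bars, n = 3 per group). The miR-21-3p samples are at 521 to 575 for PMEPA1 and 614 to 798 for MMP13, below every control sample, and at 3160 to 4250 for FST and 3590 to 3860 for MYC, above every control sample.

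The 3 genes whose log2 values followed SMAD7 most closely over the 6 samples, of 14795 tested, were RIPK1 (Pearson r = 0.9957), DYNC1LI2 (0.9950) and BCAS3 (0.9940). RIPK1 encodes a kinase of cell death and inflammatory signalling and DYNC1LI2 a chain of the dynein motor. With 6 samples in 2 groups such a ranking describes these libraries only, and no p is given. None of the 3 was called: the adjusted p was 0.0547 for RIPK1, 0.101 for DYNC1LI2 and 0.113 for BCAS3.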

How the data were processed

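PolyA RNA of 6 HaCaT samples was sequenced with a stranded kit, per the labels. The submitters' processing notes name bcl2fastq 2.18.12, cutadapt 1.15, TopHat2 2.1.1, featureCounts, Subread 1.5.2 and DESeq2; genome build and annotation are not given in the sources used here. The deposited values are a signal: read counts that the authors divided by a size factor per sample, printed to 3 significant digits, so that rounding moves a value by at most 0.5%. Raw counts had been planned for, with edgeR as the main test. The values needed another, so limma 3.58.1 (R 4.3.3, trend) was used on log2(value + 1), for genes at 10 or more in at least 3 samples, with Benjamini-Hochberg adjustment over all genes tested; fold changes are on that scale, which understates the change of low genes. Genes with an adjusted p under 0.05 were called.

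Whole reads were recovered by dividing each column by what 1 read is worth: of values under 100, which are 24.1% of nonzero values, 100% were within 0.1 of a whole read, and higher values were rounded. These reads gave depth, levels per kilobase (joined exons of GENCODE v29, since the authors' annotation is not known) and the count tests edgeR 4.0.16, which called 1640 genes, and DESeq2 1.42.0. The functions were tested on simulated data.

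The members and lists were chosen with earlier results of these data known. Named were all members; of each wider list, up to 5 called genes whose groups do not overlap and the gene with the most reads; and the 3 genes most correlated with the member of smallest p. Alternatives were other scalings, tests, filters and pseudocounts, a replicate block and leaving out each sample. The series calls the replicates biological without saying whether they were cultured or transfected separately, so p-values measure only the spread between these samples, which may be technical in part.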

Additional observations from a re-analysis of the deposited data

How the results depend on the processing

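Over the 12 alternatives that used all 6 samples, SMAD3, SMAD7 and TGFBI kept their direction, and so did the 14 called genes of the wider lists. SMAD7 kept its call in all 12 and SMAD3 in 10, and TGFBI in 9. Of the 14 wider genes, 11 kept the call in all 12, and CREBBP, TNC and IGFBP3 did not. Over all 18 alternatives, those that left out a sample included, the sign of TGFB1 changed with the setting (log2 fold changes from -0.05 to 0.09), and it was called in none. Leaving out each sample gave 176 to 2957 genes called over all genes tested against 1593, 0 to 3 members against 3, and 4 to 29 wider pathway genes against 14; fits with 5 samples have fewer residual degrees of freedom, and 2957 and 29 came without control replicate 2. The replicate numbers did not pair the samples: deviations of same-numbered samples correlated at 0.00, -0.20 and -0.16. With a replicate block, 1 member, SMAD7, was called by edgeR and by limma, with 1200 and 1193 genes in all. SMAD3 and TGFBI lost the call in both block fits, as did CREBBP (adjusted p = 0.115 by edgeR and 0.124 by limma). IGFBP3 lost it in the limma block (adjusted p = 0.0614). Of the wider genes that the main test did not call, the edgeR block called COL1A1 and LTBP2, a gene of the latency list. Pseudocounts of 0.5 and 5, the limma block, edgeR with TMM and limma on TMM-scaled values were chosen after seeing the data. Higher calls made up 56.7% of calls, and 48.7% with upper-quartile scaling.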
